A study of Mus musculus with 3 samples.

Results

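The mature miRNAs made from the miR-106b and miR-93 hairpins, with miR-20b-5p, were followed in newborn mouse ovaries exposed to di(2-ethylhexyl) phthalate (DEHP), a plasticizer. They are paralogs or genomic neighbours of paralogs of miR-17. The 5 members, mmu-miR-106b-5p, mmu-miR-106b-3p, mmu-miR-93-5p, mmu-miR-93-3p and mmu-miR-20b-5p, were taken by their mature names from 627 mature miRNAs in the count table, and all 5 were present. CD1 mouse ovaries were collected at birth and kept in culture for 72 h with 0, 10 or 100 μM DEHP. The 0 μM ovaries received DMSO, the solvent in which DEHP was dissolved, and the other groups received DEHP in DMSO. Several ovaries shared a culture well, ovaries were pooled for RNA, and 1 small RNA library was sequenced for each concentration. Every difference described here is therefore a difference between 2 libraries, with no replicate and no p-value, and each 95% interval covers counting error only. At 100 μM the arms of miR-106b moved apart: miR-106b-3p was 7.38-fold higher than at 0 μM (log2 ratio 2.88), while miR-106b-5p was lower (log2 ratio -1.56). Both arms of miR-93 and miR-20b-5p were lower in that library.

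A miRNA gene is transcribed as a long RNA that Drosha cuts to a hairpin and Dicer to a duplex of 2 strands, one from the 5′ side (the 5p arm) and one from the 3′ side (the 3p arm). Usually 1 strand is kept in an Argonaute protein and the other is degraded. The kept strand finds its target mRNAs mainly through its seed, bases 2 to 8. miR-17, miR-20a, miR-20b, miR-93, miR-106a and miR-106b are paralogs whose 5p arms share a seed, and they are known for promoting the cell cycle by lowering the cyclin-dependent kinase inhibitor Cdkn1a and other mRNAs. They are spread over 3 genomic clusters, Mir17-92, Mir106a-363 and Mir106b-25.

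The mature sequences, taken from RefSeq (GRCm38.p6) and written 5′ to 3′ with the seed in capitals, show which of the 5 members belong to the miR-17 seed family. The 3 members that are 5p arms have the seed of miR-17-5p, given below them for comparison.
mmu-miR-106b-5p: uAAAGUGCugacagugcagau
mmu-miR-93-5p: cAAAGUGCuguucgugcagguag
mmu-miR-20b-5p: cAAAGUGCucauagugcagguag
mmu-miR-17-5p: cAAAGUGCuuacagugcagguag
The 2 members that are 3p arms have other seeds, different from each other, so they are paralogs of miR-17 only through the hairpin they come from.
mmu-miR-106b-3p: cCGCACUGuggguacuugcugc
mmu-miR-93-3p: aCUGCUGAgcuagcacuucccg
Read from their first base, miR-93-5p and miR-20b-5p were identical at 20 of 23 positions, miR-106b-5p and miR-20b-5p at 17 of 21, and miR-93-5p and miR-106b-5p at 16 of 21. Against miR-17-5p, miR-20b-5p was identical at 21 of 23 positions, miR-93-5p at 19 of 23 and miR-106b-5p at 18 of 21. Reads that are short or carry an error can be assigned to the wrong paralog among sequences this close, so the split of counts between the 5p arms is uncertain to that extent.

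The hairpins of miR-106b and miR-93 lie on the minus strand of chromosome 5 of GRCm38.p6, Mir106b at chr5:138165737-138165818 and Mir93 at chr5:138165523-138165610, with 126 bases between them. Mir25, at chr5:138165321-138165404, follows 118 bases further along the strand. All 3 are in intron 13 of a coding transcript of Mcm7 with 15 exons, on the strand of that gene, which encodes a subunit of the replicative MCM helicase. Mir93 and Mir25 also overlap an exon of a retained-intron transcript of Mcm7. Mir20b is apart from them, on the minus strand at chrX:52742113-52742192, and no other gene is annotated over it in GENCODE M21. In the hairpins below, the 5p arm and then the 3p arm are in capitals, since the contrast between the arms of these neighbours is the main difference found.
Mir106b: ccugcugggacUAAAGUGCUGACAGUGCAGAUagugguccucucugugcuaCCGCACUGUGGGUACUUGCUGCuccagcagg
Mir93: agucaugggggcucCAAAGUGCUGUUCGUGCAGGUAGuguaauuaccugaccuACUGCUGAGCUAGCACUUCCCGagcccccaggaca

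The libraries summed to between 5064602 and 5952274 counts over the 627 miRNAs. The 10 most abundant miRNAs held 45.4% and 45.6% of the counts in the 0 and 10 μM libraries but 70.5% in the 100 μM library. Scaling by the total and scaling by the typical miRNA therefore differ for the last library. Counts were divided by DESeq2 size factors, which set the median miRNA as the reference. The 5 members together held 0.295% (0.290% to 0.300%) of the counts at 0 μM, 0.338% (0.333% to 0.343%) at 10 μM and 0.181% (0.178% to 0.185%) at 100 μM. In normalized counts they summed to 11246, 12710 and 19772, of which miR-106b-3p held 15439 at 100 μM. The direction of their sum at 100 μM thus depends on the scaling. miR-202, both arms of which mark gonads, was present in every library, with summed levels of 31188, 40382 and 19964 normalized counts at 0, 10 and 100 μM. As shares of the counts its arms held 0.818%, 1.07% and 0.183%. At 100 against 0 μM the log2 ratio of normalized counts was -0.74 for miR-202-5p and 0.78 for miR-202-3p.

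In the 0 μM ovaries the members fell into 3 tiers. miR-93-5p was the most abundant of them, at 6987 normalized counts (exact Poisson 95% interval 6848 to 7128), and ranked 65 among the 627 miRNAs. miR-106b-3p, at 2093 (2017 to 2170), and miR-106b-5p, at 2014 (1939 to 2090), came next with overlapping intervals and ranks of 132 and 134. miR-20b-5p, at 91.4 (76.2 to 108.9), and miR-93-3p, at 61.7 (49.3 to 76.3), were the lowest, ranked 366 and 406, and their intervals overlapped only at the edge. The order of levels between different miRNAs also depends on how well each is ligated and amplified, so only the change of such an order between libraries is compared here.

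**Figure D1:**
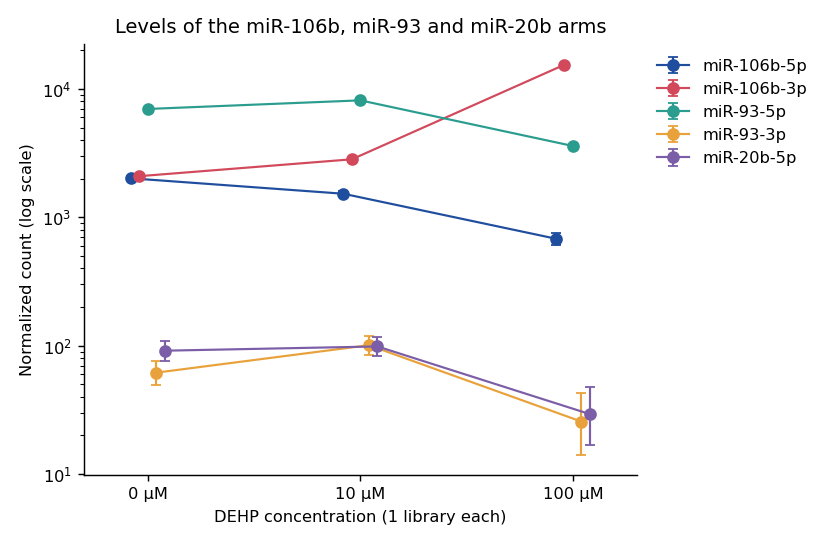
Normalized counts (log axis) of the 5 members in the 3 libraries, 1 for each DEHP concentration, with exact Poisson 95% intervals as bars (smaller than the point where not visible); lines only join points of a miRNA. At 100 μM miR-106b-3p stands at 15439 normalized counts, above the other 4, which are all below their levels at 0 and 10 μM.

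The first question was whether the members differed after 10 μM DEHP. miR-106b-5p was at 1527 normalized counts (1462 to 1594) at 10 μM, against 2014 at 0 μM, and miR-106b-3p at 2832 (2743 to 2923), against 2093. The arms of miR-106b thus lay on opposite sides of their 0 μM levels, with log2 ratios of -0.40 (-0.48 to -0.32) for the 5p arm and 0.44 (0.37 to 0.51) for the 3p arm. miR-93-5p was at 8152 normalized counts (8000 to 8306) and its log2 ratio was 0.22 (0.18 to 0.26). miR-93-3p, the minor arm, was at 100.9 (84.7 to 119.3) with a log2 ratio of 0.71 (0.31 to 1.12). For miR-20b-5p, at 98.7 (82.6 to 116.9), the log2 ratio of 0.11 had an interval from -0.25 to 0.47, so no difference was detectable at this depth. The middle 50% of the 587 miRNAs with a mean of at least 10 normalized counts had log2 ratios between -0.37 and 0.29 around a median of 0.02, so miR-93-5p and miR-20b-5p lay within that range and the other 3 members outside it. None of the 5 members was beyond a log2 ratio of 1 in either direction, where 1.53% of the 587 miRNAs were higher and 5.11% lower, or beyond 2, where the shares were 0% and 0.681%.

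At 100 μM the differences were larger, for these miRNAs and for the whole table. miR-106b-5p counted 2775, 2058 and 372 reads at 0, 10 and 100 μM, which is 682 normalized counts (614 to 754) at 100 μM. The 100 μM library was the lowest of the 3 for this arm, and the log2 ratio to 0 μM was -1.56 (-1.72 to -1.41), the 89th lowest of 587. miR-106b-3p went the other way, with 2884, 3817 and 8427 reads, or 15439 normalized counts (15111 to 15772) at 100 μM. Here the 100 μM library was the highest, also before any scaling, and the log2 ratio of 2.88 (2.82 to 2.95) was the 19th highest of 587. The rank of miR-106b-3p among all miRNAs moved from 132 at 0 μM to 58 at 100 μM, and that of miR-106b-5p from 134 to 210.

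miR-93-5p, the main product of its hairpin, had 9629, 10988 and 1963 reads, and 3596 normalized counts (3439 to 3759) at 100 μM. Its log2 ratio to 0 μM was -0.96 (-1.03 to -0.89), just inside a threshold of 1, and the 155th lowest. miR-93-3p had 85, 136 and 14 reads, and at 100 μM 25.6 normalized counts (14.0 to 43.0). The low count gave its log2 ratio of -1.25 a wide interval, from -2.20 to -0.44. miR-20b-5p was as sparse, with 126, 133 and 16 reads, 29.3 normalized counts (16.8 to 47.6) at 100 μM and a log2 ratio of -1.62 (-2.49 to -0.89). In these 3 miRNAs the 100 μM library was the lowest, and its Poisson interval did not reach those of the other libraries.

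Of the 5 members, 1 was higher and 3 were lower than at 0 μM beyond a log2 ratio of 1, where 26.7% of the 587 miRNAs were higher and 25.7% lower. Beyond 2, the fold part of the study's criterion, 1 member was higher (miR-106b-3p) and 0 lower, where 10.4% of all miRNAs were higher and 9.37% lower. The study lists a smaller fold change for miR-19a-3p than the log2 ratio of -4.42 found here at 100 against 0 μM. A log2 ratio of 2 is thus not the same limit in both. The study also set a limit on the false discovery rate, which was not computed here. Its lists of differentially expressed miRNAs hold none of the 5 members. The middle 50% of all miRNAs spanned log2 ratios from -1.06 to 1.12, with a median of -0.01, so miR-93-5p lay within that range and the other 4 members outside it. The 270 miRNAs named as 5p arms had a median of -0.17 and the 274 named as 3p arms one of 0.25. Scaling by total counts lowered the median of all miRNAs to -1.51 and the members with it, leaving miR-106b-3p at 1.37 and placing the other 4 beyond -2. Of the 587 miRNAs, 30 were then higher and 371 lower beyond 1, in place of 157 and 151. The direction of each member at 100 μM was kept under the 4 alternative scalings.

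**Figure D2:**
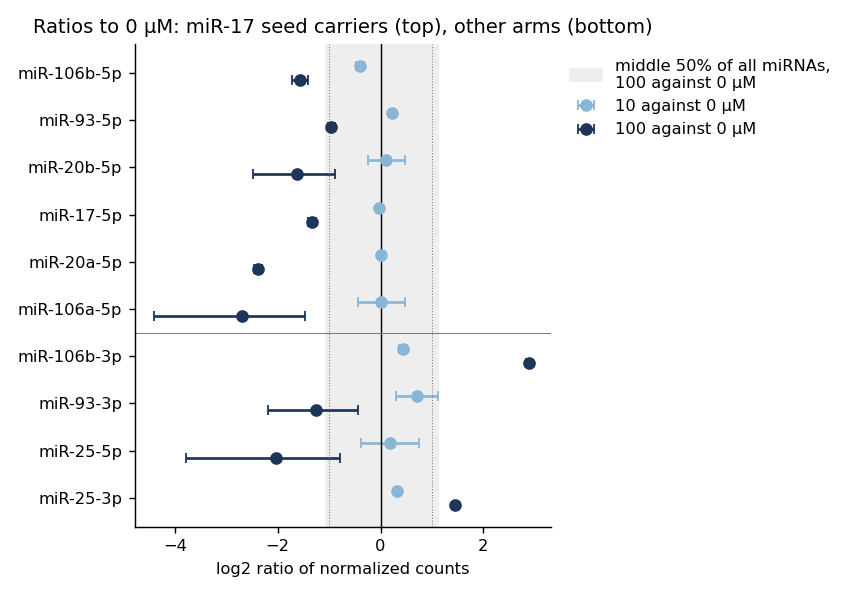
Log2 ratios to the 0 μM library at 10 μM (light) and 100 μM DEHP (dark) with 95% counting intervals for the 6 miRNAs that carry the miR-17 seed (top) and 4 other arms of the Mir106b-25 hairpins (bottom); grey marks the middle 50% of all miRNAs at 100 μM, dotted lines a log2 ratio of 1 in either direction. At 100 μM all 6 seed carriers lie left of 0, between -2.69 and -0.96, while miR-106b-3p and miR-25-3p lie right of it (miR-25-3p is at -0.07 with total-count scaling).

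The 100 and 10 μM libraries were also compared directly; this shares a library with both comparisons above, and is not independent of them. The log2 ratio of miR-106b-3p was 2.45 (2.39 to 2.50), the 41st highest of 587. Those of miR-106b-5p and miR-93-5p were near each other, at -1.16 (-1.33 to -1.004) and -1.18 (-1.25 to -1.11). miR-93-3p stood at -1.96 (-2.88 to -1.18) and miR-20b-5p at -1.73 (-2.60 to -0.999). Beyond a log2 ratio of 1, 1 member was higher and 4 were lower, against 29.5% and 24.7% of all miRNAs. Beyond 2, 1 was higher and 0 lower, against 12.3% and 8.69%. With total counts miR-106b-3p was at 0.91, so that 0 members were higher beyond 1, and the other 4 were lower beyond 2.

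The ratio of 2 arms within a library does not depend on scaling between libraries, so the arms of miR-106b were compared in this way. At 0 μM the 5p arm made up 49.0% (exact Clopper-Pearson interval 47.7% to 50.3%) of the hairpin's reads, so the arms were indistinguishable in count. The share was 35.0% (33.8% to 36.3%) at 10 μM and 4.23% (3.82% to 4.67%) at 100 μM. The 3p arm thus had 1.04, 1.85 and 22.7 reads for each read of the 5p arm at 0, 10 and 100 μM. On the log2 scale the ratio of 5p to 3p changed by -0.84 (-0.94 to -0.73) from 0 to 10 μM and by -4.45 (-4.62 to -4.28) from 0 to 100 μM, a 21.8-fold change. Both steps were in the direction of the 3p arm, and both intervals lie away from 0.

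miR-93, its neighbour in the same intron, showed no shift of this size. Its 5p arm held 99.1% (98.9% to 99.3%) of the hairpin's reads at 0 μM, 98.8% (98.6% to 99.0%) at 10 μM and 99.3% (98.8% to 99.6%) at 100 μM. The log2 ratio of its arms changed by -0.49 (-0.90 to -0.08) from 0 to 10 μM and by 0.31 (-0.52 to 1.24) from 0 to 100 μM. The second interval is wide because the 3p arm had 14 reads at 100 μM, but it does not reach that of miR-106b. Between the 3p arms themselves, the log2 ratio of miR-106b-3p to miR-93-3p changed by 4.15 (3.32 to 5.08) from 0 to 100 μM. miR-25, the remaining hairpin of the intron, is read mainly from its 3p arm. Its 5p arm held 0.226% of the reads at 0 μM, 0.205% at 10 μM and 0.0195% at 100 μM, the last from 5 reads, and the log2 ratio of its arms changed by -3.54 (-5.22 to -2.23) from 0 to 100 μM.

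**Figure D3:**
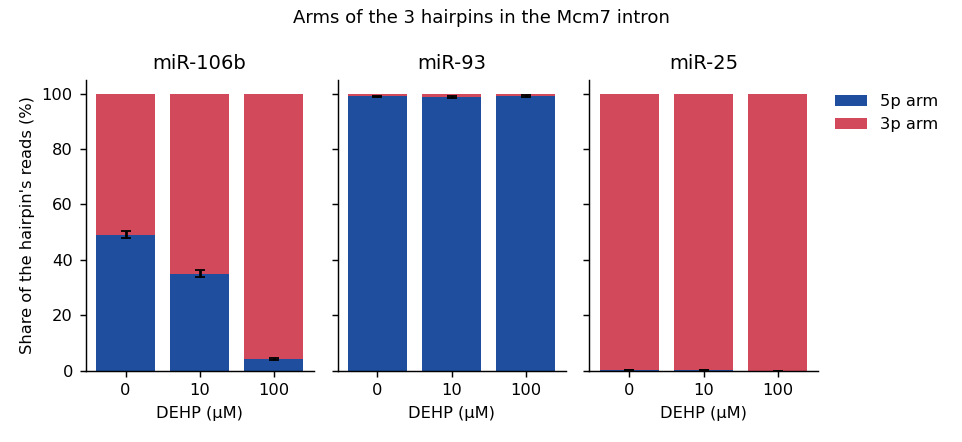
Share of each hairpin's reads (%) that came from its 5p arm (blue) and 3p arm (red) at 0, 10 and 100 μM DEHP for the 3 hairpins in the Mcm7 intron, with 95% Clopper-Pearson intervals at the border. The 5p share of miR-106b is 49.0%, 35.0% and 4.23%, while that of miR-93 stays between 98.8% and 99.3%.

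The arm ratio was also set beside that of every hairpin with both arms at a mean of at least 10 normalized counts, 174 in all. From 0 to 100 μM the median change of the log2 ratio of 5p to 3p was -0.43, and the middle 50% lay between -1.72 and 1.08. A change beyond 2 toward the 3p arm was seen in 19% of the 174 hairpins and one beyond 2 toward the 5p arm in 14.9%. miR-106b was the 8th lowest in this order, miR-25 the 14th, both beyond 2 toward the 3p arm, and miR-93 was in the middle, at 107. A 5p arm lower and a 3p arm higher, both beyond a log2 ratio of 1, were found in 12 hairpins (6.9%), among them miR-106b and miR-25. This pattern, unlike the arm ratio, depends on scaling: with total counts it held in 8 hairpins, with miR-106b and without miR-25. From 0 to 10 μM the median change was 0.04, and miR-106b was the 22nd lowest of 174.

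**Figure D4:**
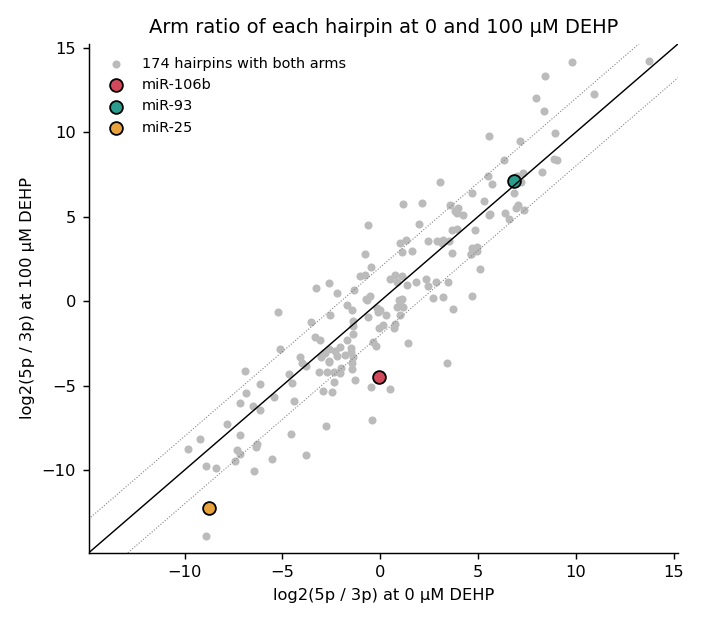
Log2 ratio of 5p to 3p counts of each of 174 hairpins at 0 μM (x axis) and 100 μM DEHP (y axis); the solid line marks equal ratios and the dotted lines a change of 2. miR-106b lies below the lower dotted line, moving from -0.06 to -4.50, and miR-93 lies close to the solid line.

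The 3 hairpins of the Mcm7 intron lie in a common host gene, and their summed counts were compared within each library. Both arms of miR-106b made up 14.4% (14.1% to 14.8%) of the reads of the 3 hairpins at 0 μM, 12.7% (12.4% to 13.0%) at 10 μM and 24.1% (23.7% to 24.6%) at 100 μM. The share of miR-93 was 24.8% (24.3% to 25.2%), 24.1% (23.7% to 24.5%) and 5.43% (5.19% to 5.66%). miR-93 therefore had more reads than miR-106b at 0 and 10 μM and fewer at 100 μM. miR-25 had the largest share in each library, between 60.8% and 70.4%. In normalized counts, the arms of miR-106b summed to 4106, 4358 and 16120 and those of miR-93 to 7049, 8253 and 3622 at 0, 10 and 100 μM. Of the 6 arms of the cluster, 4 were lower at 100 μM than at 0 μM and 2 higher. Their median log2 ratio was -1.10 at 100 μM and 0.27 at 10 μM, against -0.01 and 0.02 for all miRNAs. The higher arms were miR-106b-3p and miR-25-3p, and with total counts miR-25-3p turned to -0.07, leaving 5 lower and 1 higher.

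The 5p members were then set beside the other miRNAs with their seed, which can pair with the same sites. The log2 ratio to 0 μM at 100 μM was -2.38 (-2.46 to -2.30) for miR-20a-5p, -1.33 (-1.41 to -1.25) for miR-17-5p and -2.69 (-4.41 to -1.47) for miR-106a-5p. With the 3 members, 6 of 6 seed carriers were below 0, 5 of them beyond -1 and 2 beyond -2, where 25.7% and 9.37% of all miRNAs were lower by as much. Their median was -1.59, and that of all miRNAs -0.01. At 10 μM the median of the 6 was 0.01. The seed carriers summed to 28923, 29541 and 9475 normalized counts at 0, 10 and 100 μM. miR-93-5p had the smallest difference of the 6 in size at 100 μM.

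The makeup of this seed pool was compared by shares within a library. miR-93-5p supplied 24.2% (23.7% to 24.6%) of the pool's 39860 reads at 0 μM, 27.6% (27.2% to 28.0%) of 39820 at 10 μM and 38.0% (36.6% to 39.3%) of 5172 at 100 μM. miR-106b-5p supplied 6.96% (6.71% to 7.22%), 5.17% (4.95% to 5.39%) and 7.19% (6.50% to 7.93%), so its share at 100 μM was within the interval of that at 0 μM. miR-20b-5p contributed 0.316%, 0.334% and 0.309%, with intervals that overlap in all 3 libraries. Together the 3 members made up 31.4% (31.0% to 31.9%) of the pool at 0 μM, 33.1% (32.6% to 33.6%) at 10 μM and 45.5% (44.1% to 46.8%) at 100 μM. miR-20a-5p, from the Mir17-92 cluster, was the most abundant carrier at 0 μM, with 45.5%, and held 26.7% (25.5% to 27.9%) at 100 μM. At 100 μM miR-93-5p came first, miR-17-5p and miR-20a-5p followed with overlapping intervals, and miR-106b-5p, miR-20b-5p and miR-106a-5p kept their places at the end.

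**Figure D5:**
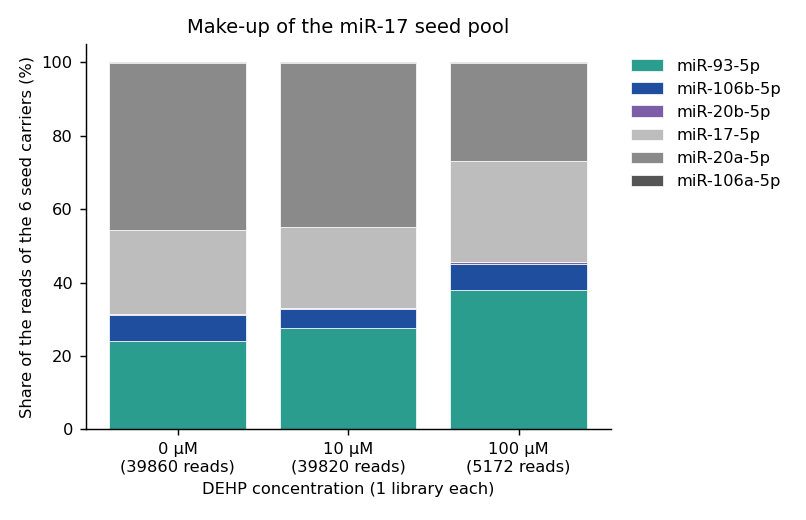
Share of the reads of the 6 miR-17 seed carriers (%) supplied by each of them in the 3 libraries, with the members in colour and the other carriers in grey. miR-93-5p takes 24.2%, 27.6% and 38.0% of the pool at 0, 10 and 100 μM DEHP, and miR-20b-5p and miR-106a-5p are too few to be seen as bars.

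Pairs of paralogs were compared by the ratio of their counts within a library. miR-93-5p had 3.47 reads for each read of miR-106b-5p at 0 μM, 5.34 at 10 μM and 5.28 at 100 μM. The log2 ratio changed by 0.62 (0.53 to 0.71) from 0 to 10 μM and by -0.02 (-0.19 to 0.16) from 10 to 100 μM, so the balance of these neighbours differed between 0 and 10 μM and no further difference was detectable between 10 and 100 μM. Relative to miR-17-5p, the log2 ratio of miR-93-5p changed by 0.37 (0.27 to 0.48) from 0 to 100 μM, and that of miR-106b-5p by -0.23 (-0.41 to -0.05). Relative to miR-20a-5p, both members were higher, miR-93-5p by a change of 1.42 (1.31 to 1.53) and miR-106b-5p by 0.81 (0.64 to 0.99). For miR-20b-5p the change relative to miR-93-5p and miR-106b-5p could not be told from 0 with 16 reads at 100 μM: the log2 ratio of miR-93-5p to it changed by 0.68 (-0.08 to 1.54) and that of miR-106b-5p by 0.08 (-0.70 to 0.94). miR-106a-5p, its neighbour on chromosome X, had 85, 84 and 5 reads, and the log2 ratio of miR-20b-5p to miR-106a-5p changed by 1.11 (-0.48 to 2.96).

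The related clusters were described by the same counts. Of 12 arms listed for Mir106a-363, the cluster of miR-20b, 6 were measured and 5 were lower at 100 μM than at 0 μM. The median log2 ratio was -1.48, against -0.01 for all miRNAs. The arm above 0 was miR-363-5p, at 2.33 (1.31 to 3.58), from 11, 8 and 23 reads at 0, 10 and 100 μM. With 7.98, 5.93 and 42.1 normalized counts, it reached the minimum mean of 10 only through the 100 μM library. Scaled by total counts, its log2 ratio was 0.86. Of 12 arms listed for Mir17-92, 10 were measured and 10 were lower, 6 of them beyond -2, where 9.37% of all miRNAs were. The median was -2.47. With miR-92a-1-5p, at 0 counts, set at the floor of 3 counts, 5 were beyond -2 and the median was -2.03. The lists share miR-19b-3p and miR-92a-3p, since those sequences come from both clusters.

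Levels of miRNAs that mark cell types differed between the same libraries. The median log2 ratio of all miRNAs at 100 against 0 μM was -0.01, and -1.51 with total counts. The 2 endothelial arms of miR-126a summed to 46170, 52252 and 9855 normalized counts at 0, 10 and 100 μM. Both were lower at 100 μM beyond a log2 ratio of 2, where 9.37% of all miRNAs were lower. The 4 miRNAs of the miR-290 cluster listed for germ cells, miR-291a-3p, miR-292a-3p, miR-294-3p and miR-295-3p, summed to 1498, 1183 and 4522. All 4 were above 0 at 100 μM with median-of-ratios scaling, but only miR-294-3p was with total counts. Other arms of the cluster went both ways. miR-292a-5p was at 2.93, miR-291a-5p at -0.11, miR-293-5p at -1.44, miR-293-3p at -0.17 and miR-291b-3p, with 1 read at 100 μM, at -2.09. The 4 stromal miRNAs, miR-143-3p, miR-145a-5p, miR-199a-3p and miR-214-3p, summed to 334506, 320851 and 922699, with 2 of 4 above 0 at 100 μM. As shares of the counts they held 8.78%, 8.54% and 8.46%, and with total counts only miR-143-3p was above 0. Leukocyte markers (3 of 3 measured) summed to 174.9, 113.5 and 73.3, red blood cell markers (3 of 3) to 948, 1009 and 835, and muscle markers (3 of 3) to 284, 214 and 480. As shares of the counts, the leukocyte, red blood cell and muscle lists were lower at 100 than at 0 μM. The germ cell list was not, with 0.0393%, 0.0315% and 0.0415% at 0, 10 and 100 μM. Leukocyte markers held 0.00459% at 0 μM and 0.000672% at 100 μM, red blood cell markers 0.0249% and 0.00766%, and muscle markers 0.00744% and 0.00440%. No marker of these lists was at 0 counts in a library, and their part in the differences of miR-106b, miR-93 and miR-20b was not tested. In pooled whole ovaries, fewer cells of a type and less RNA per cell cannot be told apart.

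The miRNAs with the pattern closest to a member were found by the Euclidean distance of the pair of log2 ratios, 10 to 0 μM and 100 to 0 μM, over the 3 libraries. Closest to miR-106b-5p were miR-20a-3p (distance 0.137, with 34, 24 and 4 reads), miR-499-5p (0.147, with 118, 79 and 16) and miR-1306-3p (0.162, with 47, 31 and 6). The counting interval of miR-20a-3p at 100 against 0 μM, -3.71 to -0.26, is far wider than these distances. The order of closeness among such sparse miRNAs is therefore uncertain. Closest to miR-93-5p were miR-335-5p (0.0649), miR-196b-5p (0.0662, with 539, 597 and 106 reads) and miR-130a-5p (0.0764, with 49, 59 and 10). miR-335-5p had 10840, 11874 and 2169 reads, and its log2 ratios were 0.16 at 10 μM and -0.98 at 100 μM.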

How the data were processed

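Small RNA of cultured CD1 mouse ovaries was sequenced as 1 library for each of 3 DEHP concentrations. The authors trimmed adapters and low-quality reads, mapped to the mouse genome (mm10 per the submitters' notes) with bowtie2 and quantified with miRDeep2. They deposited whole-number counts, not normalized, in 961 rows for 627 mature IDs. Tool versions and the miRBase release are not given in the sources used here. Of the IDs, 79 had several rows, of which the row with the largest sum was taken (each member has 1 row). Columns were assigned to concentrations by the sample labels.

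From the counts, DESeq2 1.42.0 (R 4.3.3) gave size factors of 1.38, 1.35 and 0.546, and edgeR 4.0.16 the TMM and upper-quartile factors. Log2 ratios used normalized counts with 0.5 added and were ranked over 587 miRNAs with a mean of at least 10. All 5 members passed this minimum, and their lowest count was 14. Intervals at 95% are exact, Poisson for a level and Clopper-Pearson for the split of 2 counts, and changes of a ratio between libraries are log2 odds ratios with exact conditional intervals. Arm ratios in the ranking of 174 hairpins used normalized counts with 0.5 added. Without molecular identifiers reads are not independent molecules, and the intervals and floors hold counting error alone. Totals were 5253367, 5064602 and 5952274 counts, and a floor of 3 counts is 2.18, 2.23 and 5.50 normalized counts. With 1 library per group no test was made. The scripts were tested on simulated data, with Python 3.11.15.

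Members and lists were chosen with earlier results of these data known. The miRNAs named are the members, the other carriers of their seed, the arms of miR-25, members of the cluster and marker lists, and the 3 miRNAs nearest in pattern to miR-106b-5p and to miR-93-5p. Other arms of the miR-290 cluster were named after their values were seen. As alternatives, libraries were scaled by TMM, upper quartiles, total counts, or totals without the 10 most abundant miRNAs, 1 or 10 normalized counts were added, rows were chosen otherwise, and the minimum was dropped or raised to 100. Hairpins were placed by GENCODE M21, and RefSeq had a mature sequence for 529 of the 627 IDs.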

Additional observations from a re-analysis of the deposited data

How the results depend on the processing

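No paired analysis was possible because each concentration has 1 library, and for the same reason no replicate could be left out. The change of the arm ratio of miR-106b and the other ratios within a library do not depend on scaling. With total counts, the log2 ratios at 100 against 0 μM were -3.08 (miR-106b-5p), 1.37 (miR-106b-3p), -2.47 (miR-93-5p), -2.73 (miR-93-3p) and -3.11 (miR-20b-5p), with medians of -3.10 for the seed carriers and -2.60 for the Mir106b-25 arms. At 100 against 10 μM they were -2.70, 0.91, -2.72, -3.46 and -3.24, with medians of -3.04 and -2.71. Beyond 2 there were then 4 members in each comparison, and 217 and 234 of all miRNAs, against 116 and 123 with median-of-ratios scaling. For these counts the minimum mean was applied after each scaling, so the set of miRNAs differs. Over the 587 miRNAs, total counts placed 4 higher and 208 lower beyond 2 at 100 against 0 μM. At 100 against 10 μM they placed 8 higher and 221 lower. Total counts moved the median of all miRNAs to -1.51 at 100 against 0 μM, and totals without the 10 most abundant to -0.77. With the latter, miR-106b-5p was at -2.33, miR-106b-3p at 2.12, miR-93-5p at -1.72, the seed carriers at -2.35, the cluster arms at -1.86 and 4 members were beyond 2. At 100 against 10 μM the values were -1.97, 1.64, -1.99, -2.32 and -1.98, with 2 members beyond 2, and at 10 against 0 μM miR-93-5p was at 0.26. With TMM, miR-106b-3p was at 2.96 and miR-93-5p at -0.88 (100 against 0 μM). With upper quartiles, miR-93-5p was at 0.28 (10 against 0 μM), and 2 members were beyond 2 at 100 against 10 μM.

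With 10 normalized counts added, 23 of all miRNAs were beyond 1 and 1 beyond 2 at 10 against 0 μM, where 39 and 4 were found with 0.5 added. With no minimum, 9 were beyond 2. With a mean of at least 100, 17 and 1 were found at 10 against 0 μM, 198 and 75 at 100 against 0 μM, where 308 and 116 were found with a mean of at least 10, and 81 beyond 2 at 100 against 10 μM. This minimum left 2 members beyond 1 at 100 against 0 μM and 3 at 100 against 10 μM, since it removes the sparse members. In 315 other comparisons with an alternative, the value stayed within its counting interval or the count within 1.5 times its first value. With total counts, for example, 409 of all miRNAs were beyond 1 at 100 against 0 μM, in place of 308. The minimum was applied there after that scaling, whereas 30 higher and 371 lower were counted over the 587 miRNAs. No member changed direction, but miR-25-3p did with total counts, at -0.07 at 100 against 0 μM. Scalings of the cluster, offset-seed and marker lists and of the hairpin pattern were added after the data were seen. Over the alternatives the log2 ratio at 100 against 0 μM was between 1.37 and 2.96 for miR-106b-3p, between -3.08 and -1.48 for miR-106b-5p and between -2.47 and -0.88 for miR-93-5p. Depth limits miR-93-3p and miR-20b-5p most, with 14 and 16 reads at 100 μM, and the variation between cultures was not measured.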

Other observations

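The other hairpins in which the 5p arm was lower and the 3p arm higher at 100 μM DEHP, both beyond a log2 ratio of 1, were miR-140, miR-143, miR-151, miR-30e, miR-34b, miR-501, miR-582, miR-671, miR-674 and miR-708, besides miR-106b and miR-25. They were named after their values were seen. The largest change of the arm ratio was that of miR-30e, whose log2 ratio of 5p to 3p changed by -7.04 from 0 to 100 μM and was -3.64 in the latter library. The opposite pattern, a 5p arm higher and a 3p arm lower beyond 1, was found in 13 of the 174 hairpins. With total counts, the first pattern was found in 8 hairpins, of which miR-106b, miR-151, miR-30e and miR-708 are among those named here, and the opposite pattern in 6.

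Some miRNAs carry the core AAGUGC of the miR-17 seed 1 base earlier, at bases 2 to 7. This set was formed after the data were seen. Only the 529 of 627 IDs with a RefSeq mature sequence could be searched, so the set may be incomplete. Of those found, miR-291a-3p, miR-291b-3p, miR-294-3p, miR-295-3p and miR-350-5p were measured, 4 with a mean of at least 10 normalized counts. The remaining miRNA, miR-291b-3p, had 13, 11 and 1 reads at 0, 10 and 100 μM. Its log2 ratio at 100 against 0 μM was -2.09, with an interval from -7.77 to 0.37. The other 4 were all above 0 in that comparison, with a median log2 ratio of 0.95, against -0.01 for all miRNAs. The highest value was 2.70 (2.54 to 2.86), for miR-294-3p. With total counts 3 of the 4 were below 0, all but miR-294-3p, and the median was -0.57. The 6 carriers of the miR-17 seed, with the core at bases 3 to 8, had a median of -1.59 in the same comparison and of -3.10 with total counts. Summed, these 5 miRNAs were at 1242, 965 and 3904 normalized counts at 0, 10 and 100 μM, below the seed carriers' 9475 also at 100 μM. Among them, miR-291a-3p, miR-294-3p and miR-295-3p are germ cell markers named above, and their part in this contrast was not tested.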
